A study of Rattus norvegicus with 145 samples.

Results

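Chemokines and chemokine receptors were described in the liver RNA-Seq of rats gavaged with acetamide, a small amide found in food, through the 50 genes of the count tables whose symbols begin with Ccl, Cxcl, Cx3c, Xcl, Ccr or Cxcr and, outside Cx3c and Xcl, go on with a digit. They comprised 34 ligands and 16 receptors among the 17337 genes listed in each of the 5 tables. Experiment A used male Wistar rats labelled Hsd:WI, aged 9 to 10 weeks and supplied by Envigo, gavaged daily for 7 days with the water vehicle or with acetamide and sampled on day 8. Doses in mg/kg/day (mkd) were 30 and 100 at the low end, then 300, and 1000 at the top. Experiment B used Wistar rats labelled Crl:WI, aged 8 to 10 weeks and supplied by Charles River, of both sexes, gavaged with water or with 5 doses (300 mkd, 500 mkd, 750 mkd, 1000 mkd and 1500 mkd) for 7 or 28 days and sampled on day 8 or day 29. Each of the 29 groups had 5 rats with a library, which makes 145 rats in all, and every library was made from the left lobe of the liver. The paper gives more rats per group than have a library here. No rat carried a transgene or a deletion, and bulk liver RNA does not tell which cells made a transcript.

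Chemokines are small secreted proteins that guide leukocytes along a gradient, and their receptors are G protein-coupled receptors on the migrating cells. In liver, sinusoidal endothelial cells, Kupffer cells (the resident macrophages), hepatocytes and stellate cells can all secrete them. Ligands of CXCR3 are classical targets of interferon signalling and attract T and NK cells, ligands of CCR2 attract monocytes, the ligands Ccl3, Ccl4 and Ccl5 attract monocytes and lymphocytes, and ligands of CXCR2 attract neutrophils.

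The promoters of the 3 ligands of CXCR3, which are neighbours on chromosome 14, and of Cxcl1, a ligand of CXCR2, are shown here. These genes of 1 chromosome differed in their calls (criteria below) at the highest dose of experiment A. Cxcl10 was called higher and Cxcl1 lower, a call lost without 1 vehicle rat, while Cxcl9 and Cxcl11 were not called. Their changes were not tested against each other. Each run holds the 250 bases before the gene's start in RefSeq, build GRCr8, written 5′ to 3′ on the strand of the gene. Capitals mark matches, on either strand, to the kappa B motif or to GAAANNGAAA, the core of the interferon-stimulated response element.
Cxcl9 (chr14:16006916-16007165, plus strand): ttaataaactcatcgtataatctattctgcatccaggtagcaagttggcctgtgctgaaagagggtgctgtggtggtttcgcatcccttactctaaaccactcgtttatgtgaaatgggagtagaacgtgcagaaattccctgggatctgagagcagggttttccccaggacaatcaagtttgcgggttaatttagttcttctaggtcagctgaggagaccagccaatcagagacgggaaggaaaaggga
Cxcl10 (chr14:15988816-15989065, plus strand): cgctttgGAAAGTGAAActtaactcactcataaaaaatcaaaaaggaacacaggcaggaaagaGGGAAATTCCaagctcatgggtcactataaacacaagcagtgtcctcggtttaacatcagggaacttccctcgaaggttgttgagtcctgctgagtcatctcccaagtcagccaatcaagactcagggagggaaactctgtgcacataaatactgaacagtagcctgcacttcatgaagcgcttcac
Cxcl11 (chr14:15973478-15973727, plus strand): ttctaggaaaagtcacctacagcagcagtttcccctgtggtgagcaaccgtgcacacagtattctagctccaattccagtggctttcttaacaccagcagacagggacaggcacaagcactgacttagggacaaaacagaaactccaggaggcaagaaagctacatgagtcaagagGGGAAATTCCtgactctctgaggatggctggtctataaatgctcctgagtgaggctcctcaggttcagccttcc
Cxcl1 (chr14:17479322-17479571, minus strand): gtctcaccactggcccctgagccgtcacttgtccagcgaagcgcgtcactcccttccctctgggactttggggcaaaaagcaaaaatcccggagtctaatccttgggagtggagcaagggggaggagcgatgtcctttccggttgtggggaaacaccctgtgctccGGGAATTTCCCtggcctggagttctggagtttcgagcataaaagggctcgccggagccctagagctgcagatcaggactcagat
Cxcl10 held 1 match to each motif, which lay 177 bases (kappa B) and 233 bases (response element core) before the start. Cxcl11 held a kappa B match 64 bases before the start, Cxcl1 held a pair of overlapping kappa B matches at 74 and 73 bases, and Cxcl9 held neither set of letters in this window. Promoters were matched by symbol for 38 of the 50 members, and the kappa B motif stood in 8 of them (21.1%) and in 3.54% of all 33469 promoters of that length. The 8 were Ccl20, Ccl9, Ccr3, Cxcl1, Cxcl10, Cxcl11, Cxcl2 and Cxcl6, of which only Cxcl1 and Cxcl10 were called at the highest dose of experiment A. Members without a matched promoter included Ccl2, Ccl3, Ccl4, Ccl5 and Ccr7, which were called there, so the share leaves them out. The response element core stood in 2 of the 38 (5.26%), Cxcl10 and Ccl19, and in 3.41% of all promoters, and it overlapped a kappa B match in none of the members. Such a match describes the letters only and is not a measured binding site.

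Each library held between 15449716 and 39986531 reads on genes (median 28262376). After the filter on low counts, 29, 29, 28, 31 and 32 members could be tested in experiment A, in males of experiment B on day 8 and day 29, and in females on day 8 and day 29. Of the 50 members, 28 passed in all 5 data sets, 5 passed in some (Ccl12, Ccr1, Ccr9, Cxcl17 and Cxcl2) and 17 passed in none. Among the 17 were the neutrophil receptors Cxcr1, which never had more than 1 read in a rat, and Cxcr2, with at most 12 reads, and Ccl20, the ligand of CCR6, with at most 2 reads. A difference in these genes was not detectable at this depth. Ccl7, a ligand of CCR2, also failed the filter and reached 75 reads in replicate 3 of the 1000 mkd rats of experiment A. Levels are given as CPM, the reads of a gene relative to the library's total after scaling by the TMM factors, which do not take gene length into account, so levels were compared between rats and not between genes.

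Calls required a change of 1.5-fold or more, up or down, together with an adjusted p no higher than 0.05 (quasi-likelihood F-test of edgeR, Benjamini-Hochberg over all genes tested). In experiment A at 1000 mkd, 12 of the 29 members tested rose and 2 fell, or 48.3% of them, whereas 21.4% of all 11323 genes tested were called, 14% higher and 7.45% lower. The raised members included the interferon-associated ligand Cxcl10 (18.5-fold), the ligands Cxcl16, Ccl2, Ccl3, Ccl4, Ccl5 and Xcl1, and the receptors Ccr1, Ccr7, Cxcr3 and Cx3cr1, and the lowered members were Ccl27 and Cxcl1. In females of experiment B on day 29 at 1500 mkd, 5 of 32 members were called (15.6%), with Cxcl16, Cx3cr1 and Cxcr4 among those that rose and Ccl24 lower, beside 13.1% of all genes (9.55% higher and 3.54% lower). In females on day 8 at 1500 mkd only Ccl12 was called among 31 members (3.23%, beside 0.705% of all genes), and since Ccl12 passed the filter on low counts through treated rats alone, its call is a description and not a test. In males of experiment B at 1500 mkd, 0 of 29 members were called on day 8 (0.177% of all genes) and 0 of 28 on day 29 (4.91% of all genes). In each of these comparisons in males edgeR gave 4 members an unadjusted p under 0.05, and the Wald test of DESeq2 also called 0 members. On day 29, Cxcr5 was called in males without replicate 3 of the 1500 mkd rats, the only single rat whose removal gave a call there. The paper named this rat an outlier in Ki67 labeling, a measure of cell proliferation, and left it out of its benchmark dose modeling. Its TMM factor was 1.486, beside 0.9704 to 1.083 in the other rats of its group. The comparisons of a data set share their 5 vehicle rats. In bulk liver, fewer cells of a type and less RNA per cell cannot be told apart, and neither can more cells and more RNA per cell.

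**Figure D1:**
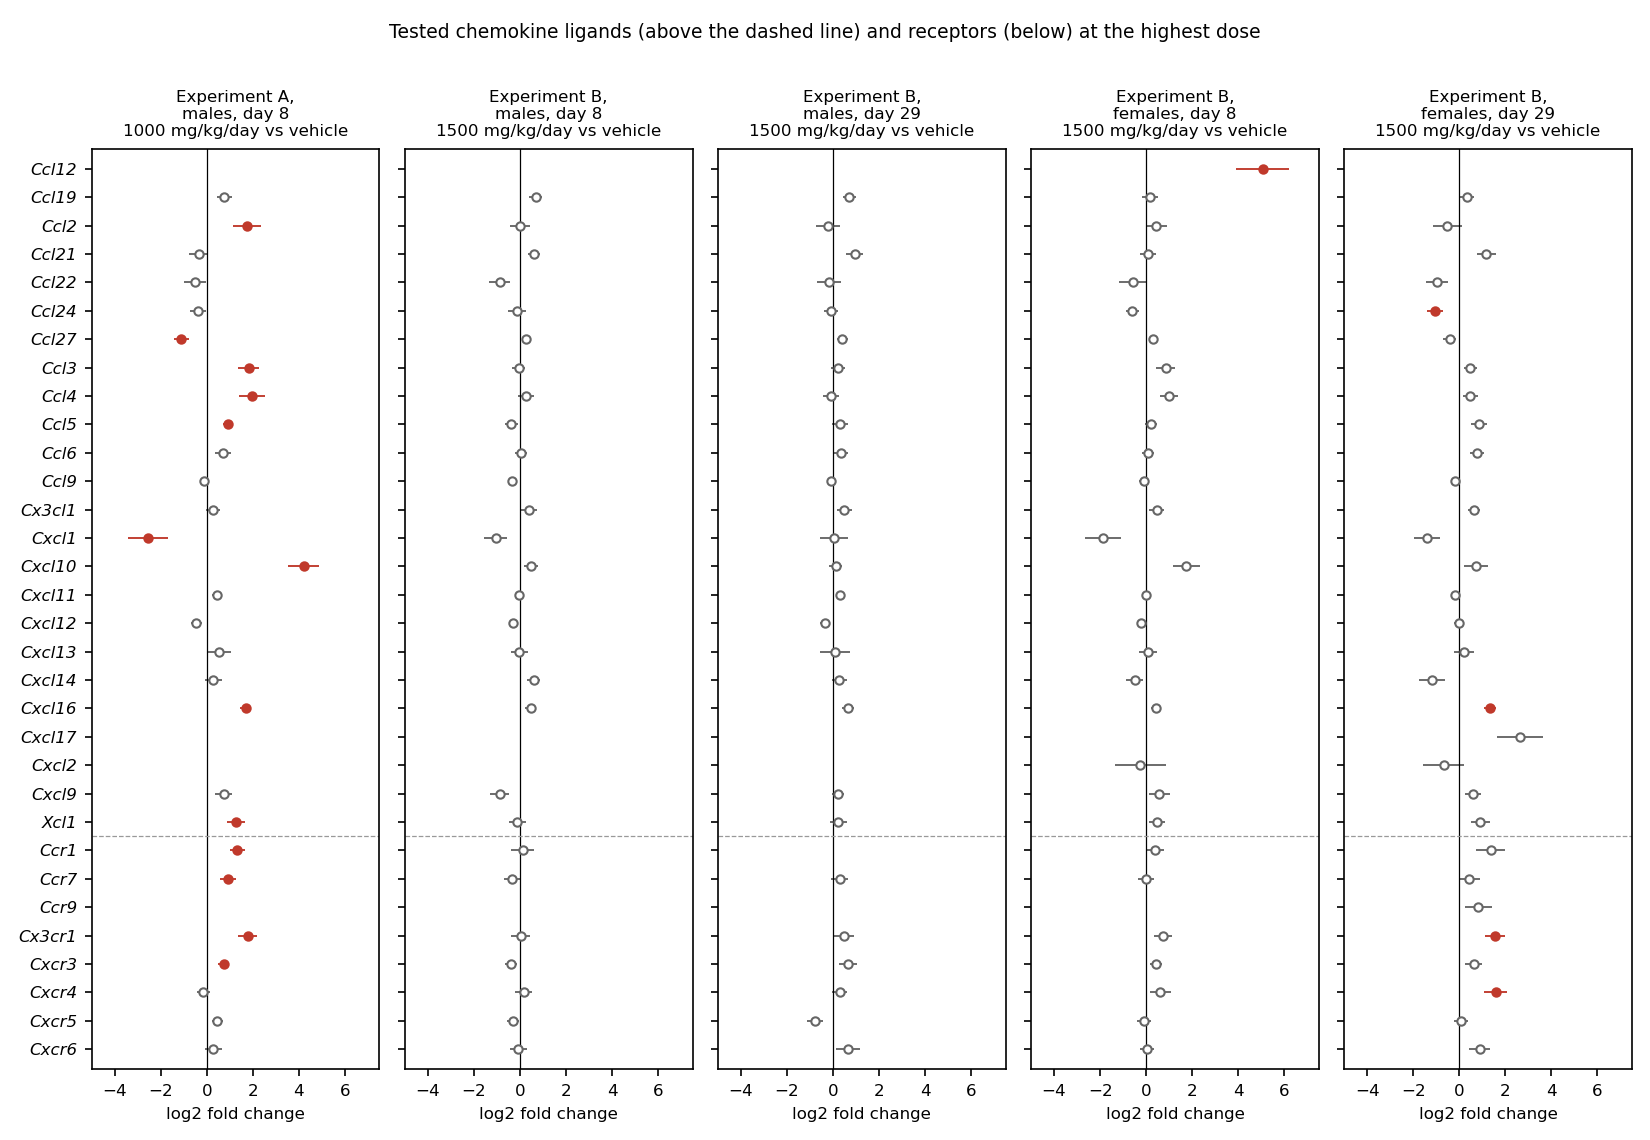
Log2 fold change of tested members at the highest dose against vehicle in the 5 data sets, with ligands above and receptors below the dashed line. Points are the estimates of edgeR, bars are ± 1 SE, filled red points are called members and open points are not, and a row without a point did not pass the filter in that data set. Cxcl10 has the largest rise in experiment A (4.21), males of experiment B have 0 filled points on either day, and Cxcl16 is filled in experiment A and in females on day 29. Ccl12, filled in females on day 8, passed the filter through treated rats alone.

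At the 19 lower doses 0 members were called by edgeR, with at most 8 members of a comparison at an unadjusted p under 0.05. The lowest adjusted p was 0.0554, for Cxcl16 in males on day 29 at 1000 mkd. Over all genes, 0% were called at 30, 100 and 300 mkd in experiment A and at 300 to 1000 mkd in males on day 8. The share was 0%, 0%, 0.78% and 2.76% at 300, 500, 750 and 1000 mkd in males on day 29. In females it was 0.0087%, 0.0174%, 0.0174% and 1.37% at these doses on day 8 and 0%, 0.0349%, 0.183% and 1.59% on day 29. DESeq2 was not run at the lower doses.

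Cxcl10, whose product binds CXCR3, had the largest fold change among the members called in experiment A. The vehicle rats (replicates 1 to 5) measured 2.6, 4.43, 2.57, 2.62 and 3.05 CPM. At 1000 mkd replicates 2 to 6 measured 13.4, 99.9, 12.2, 127 and 29.9 CPM. Every treated rat lay above every vehicle rat, and replicates 3 and 5 stood far above the other 3. The log2 fold change was 4.21 (SE 0.67, adjusted p = 0.0002, edgeR). Means at the lower doses were 4.99, 3.91 and 6.19 CPM at 30, 100 and 300 mkd, beside 3.05 CPM in vehicle rats. Day 8 females given vehicle measured 2.67, 4.85, 12.7, 11 and 4.74 CPM and the 1500 mkd rats 6.01, 21.9, 22.9, 64.7 and 4.92 CPM. Replicates 2, 3 and 4 lay above all vehicle rats while the other 2 lay within their range, and the log2 fold change of 1.75 (SE 0.59) had an adjusted p of 0.128. Without replicate 1 or 5 of the treated rats it was called, at 2.02 and 2.03. The values overlapped as well in females on day 29, from 2.85 to 19.5 CPM in vehicle rats and from 4.77 to 28.6 CPM at 1500 mkd (log2 fold change 0.72, SE 0.51, adjusted p = 0.332).

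Cxcl9 and Cxcl11, the other ligands of CXCR3 and likewise interferon targets, were not called at any highest dose. Cxcl9 measured 18.3, 14.8, 9.83, 14.7 and 10.3 CPM in the vehicle rats of experiment A and 11.2, 47.5, 14.1, 25.4 and 14.6 CPM at 1000 mkd. Only replicates 3 and 5, which were also highest for Cxcl10, lay above the vehicle range (log2 fold change 0.73, SE 0.36, adjusted p = 0.12). Cxcl11 ran from 17.1 to 24.1 CPM in vehicle rats and measured 26.5, 29.4, 18.9, 38.2 and 23.7 CPM at 1000 mkd, again with replicate 5 highest (log2 fold change 0.43, SE 0.18, adjusted p = 0.0733). Cxcl10 and Cxcl11 lie within the annotated span of Art3 in GRCr8, and the strand setting of the counting is not given in the sources used here. Art3 measured 0.808 CPM in vehicle rats and 1.16 CPM at 1000 mkd (log2 fold change 0.53, SE 0.40, adjusted p = 0.334).

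**Figure D2:**
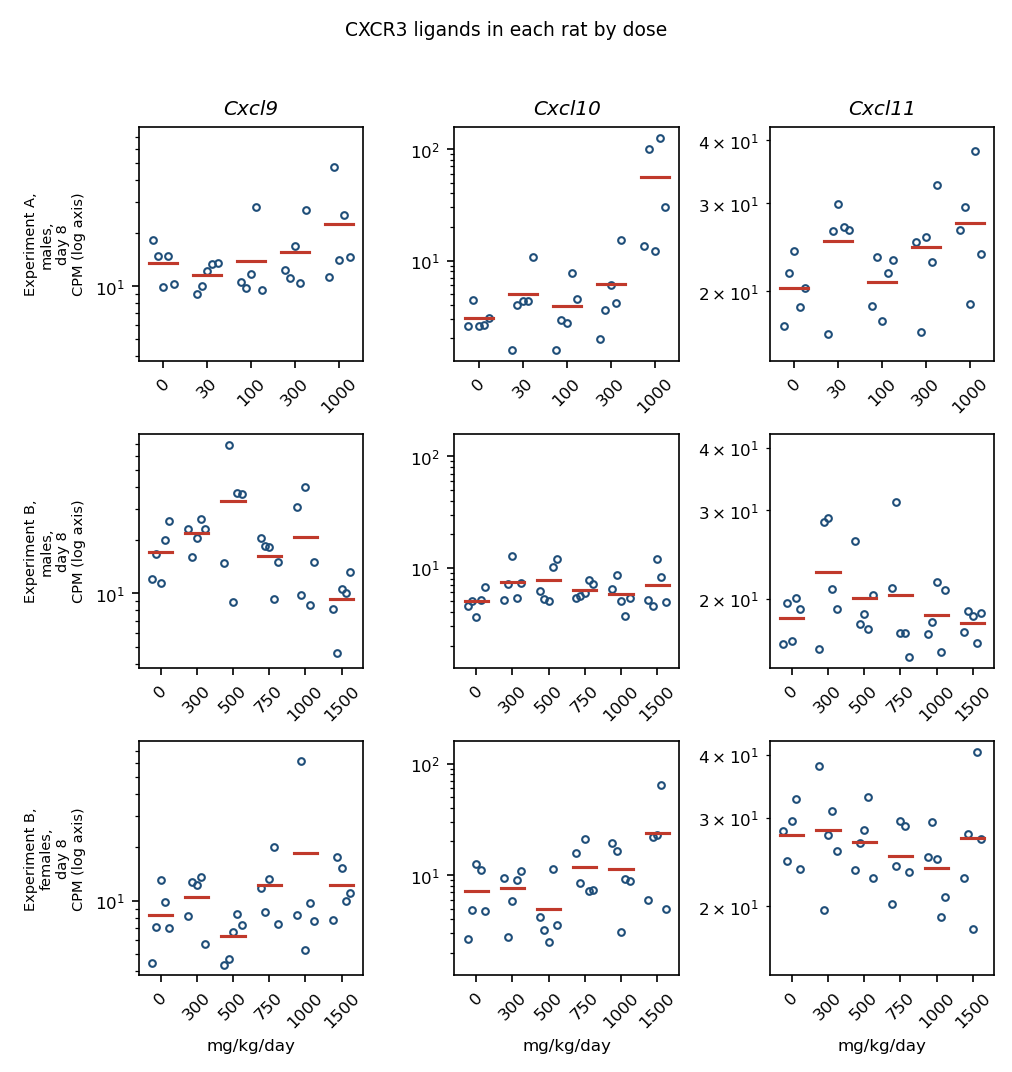
Level of the CXCR3 ligands Cxcl9, Cxcl10 and Cxcl11 in each rat (open circles, CPM on a log axis) by dose in mg/kg/day, with red bars at the group means, in males of experiment A (top) and in males (middle) and females (bottom) of experiment B on day 8. Cxcl10 at 1000 mkd in experiment A stands apart, with a mean of 56.5 CPM beside 3.05 CPM in vehicle rats, whereas males of experiment B stayed between 3.64 and 12.7 CPM at every dose.

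Cxcl16, the ligand of CXCR6 on T and NKT cells that is also a scavenger receptor of macrophages, was called in both experiment A and females on day 29. In experiment A the vehicle rats measured 5.47, 8.71, 7.11, 6.02 and 7.38 CPM and the 1000 mkd rats 15.1, 34.7, 14.8, 29.7 and 18.3 CPM. The groups did not overlap, and replicates 3 and 5 were again the highest (log2 fold change 1.70, SE 0.24, adjusted p = 9.53e-05). Among day 29 females, the vehicle rats measured 4.78, 10.1, 10.5, 8.69 and 7.6 CPM and the 1500 mkd rats 18.9, 31.5, 22.6, 20.1 and 12 CPM. These groups did not overlap either, and the log2 fold change was 1.34 (SE 0.25, adjusted p = 0.000801). At 1500 mkd in these females the groups did not overlap in 2 of 32 members tested (6.25%) and in 6.13% of all genes tested. Group means of these females were 8.33, 9.5, 11.9, 12.2, 13.8 and 21 CPM from vehicle to 1500 mkd. In males on day 29 the 1000 mkd rats all lay above the vehicle rats, with a mean of 11.8 CPM beside 6.42 CPM, whereas at 1500 mkd only 2 of 5 did (mean 10.2 CPM). The receptor Cxcr6 was not called in any data set. Fyco1 overlaps Cxcr6 in GRCr8, and its part in the counts of Cxcr6 was not tested. Zmynd15, which overlaps Cxcl16 in GRCr8, also rose in experiment A (0.793 to 2.38 CPM, log2 fold change 1.57, SE 0.42, adjusted p = 0.00713) and in females on day 29 (0.848 to 2.73 CPM, log2 fold change 1.68, SE 0.44, adjusted p = 0.00859), and reads of the pair may not have been told apart.

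Among the inflammatory CC ligands Ccl3, Ccl4, Ccl5, Ccl6 and Ccl9, 3 of 5 rose in experiment A, where 14% of all genes were called higher, and 0 of 5 were called in the other data sets, where 0.177% to 13.1% of all genes were called and the median log2 fold change of the 5 ran from -0.06 to 0.47. Ccl3, a macrophage product, measured 0.912, 1.09, 1.63, 0.843 and 0.459 CPM in vehicle rats and 1.27, 6.66, 1.48, 5.21 and 2.59 CPM at 1000 mkd. Replicates 3, 5 and 6 lay above all vehicle rats and the other 2 within their range (log2 fold change 1.81, SE 0.44, adjusted p = 0.00396). Ccl4, its close relative, measured 0.982, 0.29, 0.794, 0.211 and 0.295 CPM and 0.595, 4.39, 0.562, 2.99 and 1.44 CPM, with the same 3 rats above the vehicle range (log2 fold change 1.98, SE 0.56, adjusted p = 0.0108). Without replicate 3 of the 1000 mkd rats Ccl4 was no longer called (adjusted p = 0.0638). Ccl5, made by T and NK cells, measured 4.88, 5.7, 5.9, 5.57 and 4.13 CPM in vehicle rats and 7.94, 8.49, 6.71, 12.7 and 14.1 CPM at 1000 mkd. Here the groups did not overlap and replicates 5 and 6 were highest (log2 fold change 0.93, SE 0.22, adjusted p = 0.00336). Ccl6 and Ccl9, which were among the 5 members with the most reads in vehicle rats beside Cxcl12, Cxcl11 and Cxcl9, were not called. Ccl9 ran from 470 to 780 CPM in vehicle rats and from 395 to 717 CPM at 1000 mkd (log2 fold change -0.11, SE 0.17, adjusted p = 0.677). Ccl6 ran from 29.7 to 114 CPM and from 74.8 to 170 CPM (log2 fold change 0.72, SE 0.35, adjusted p = 0.122). The 2 genes are close paralogs, and how the counting divided any shared reads is not given in the sources used here. LOC103693406 overlaps Ccl3 and Ccl6 in GRCr8, and its part in their counts was not tested.

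The ligands of CCR2 were low. Ccl2, the main monocyte attractant, measured 0.351, 0.69, 0.454, 0.512 and 0.952 CPM in the vehicle rats of experiment A and 0.624, 5.66, 0.798, 2.03 and 0.831 CPM at 1000 mkd. Only replicates 3 and 5 lay above the vehicle range (log2 fold change 1.76, SE 0.60, adjusted p = 0.0298). Without replicate 3 the log2 fold change was 0.86 and the call was lost, as it was without vehicle replicate 1, 3 or 4, with log2 fold changes of 1.62, 1.68 and 1.70 (adjusted p by edgeR at most 0.27 over its 15 alternatives). Ccl12 did not pass the filter in experiment A, where vehicle rats had 1 to 4 reads and the 1000 mkd rats 6, 583, 14, 210 and 19 reads. In females on day 8 the 5 vehicle rats had 0, 2, 2, 0 and 2 reads and the 1500 mkd rats 1, 130, 21, 67 and 2 reads. Replicates 2, 3 and 4 of the treated females had far more reads than the other rats, and they were also the highest treated rats for Cxcl10. The mean of the treated rats was at least 14.1-fold higher than a floor of 3 reads per vehicle library, and at least 9.68-fold higher without replicate 2. Only treated rats had 10 or more reads of Ccl12, so it passed the filter through them and no test of it is given. Leaving out any vehicle rat, or replicate 2, 3 or 4 of the treated rats, ended its call.

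Cxcl1 was the only ligand of CXCR2 tested in all data sets. It measured 2.49, 1.74, 6.5, 58 and 2.85 CPM in the vehicle rats of experiment A and 1.45, 1.37, 6.42, 1.95 and 1.17 CPM at 1000 mkd. The groups overlapped, and vehicle replicate 4 stood far above the other vehicle rats (log2 fold change -2.55, SE 0.85, adjusted p = 0.0268). Without that rat the log2 fold change was -0.47 (adjusted p = 0.623), and the call was also lost without replicate 3, 5 or 6 of the 1000 mkd rats, with log2 fold changes of -2.39, -2.47 and -2.37. Its log2 fold change at 1500 mkd was -1.06 (SE 0.51, adjusted p = 0.383) in males on day 8, -1.86 (SE 0.79, adjusted p = 0.256) in females on day 8 and -1.42 (SE 0.56, adjusted p = 0.0755) in females on day 29. In males on day 29 it was 0.06 (SE 0.61, adjusted p = 0.964). Vehicle rats varied widely in all data sets, for example from 3.83 to 37 CPM in females on day 8.

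Of the remaining ligands, Ccl27, a skin-associated ligand of CCR10, fell in experiment A from 2.56, 2.76, 4.54, 4.61 and 4 CPM to 2.01, 0.738, 2.34, 1.74 and 1.86 CPM. The groups did not overlap in CPM, and replicate 3 was the lowest (log2 fold change -1.10, SE 0.32, adjusted p = 0.0132). TMM factors ran from 1.056 to 1.905 (replicate 3) in the treated rats and from 0.856 to 0.976 in vehicle rats. Raw reads were 71, 42, 79, 65 and 76 in the treated rats and 73, 76, 120, 153 and 122 in vehicle rats. The raw reads overlapped, so the separation depends on this scaling. Il11ra1 overlaps Ccl27 in GRCr8 and fell in the same rats from 47.1 to 31.5 CPM (log2 fold change -0.58, SE 0.21, adjusted p = 0.0347), and its part in the counts of Ccl27 was not tested. Xcl1, which cytotoxic lymphocytes secrete to attract cross-presenting dendritic cells, measured 0.561, 0.871, 0.416, 0.662 and 0.886 CPM in vehicle rats and 0.992, 1.32, 1.54, 2.8 and 1.66 CPM at 1000 mkd. These groups did not overlap, and replicate 5 was highest (log2 fold change 1.28, SE 0.39, adjusted p = 0.0171). Xcl1 was no longer called without that rat (adjusted p = 0.065). Cxcl12, the ligand of CXCR4 that retains leukocytes in tissues, was not called and ran from 323 to 491 CPM in vehicle rats and from 133 to 447 CPM at 1000 mkd (log2 fold change -0.46, SE 0.24, adjusted p = 0.144). Cxcl17, a mucosal chemokine with at most 3 reads in a vehicle rat of experiment A, did not pass the filter there. It measured 0.142, 2.79, 0.148, 1.31 and 0.611 CPM at 1000 mkd, with replicates 3 and 5 highest, and its mean was at least 9.69-fold higher than the floor of 3 reads per library, or at least 5.35-fold without replicate 3.

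Several receptors of leukocytes rose in experiment A, and 0 of the receptors tested fell. Cx3cr1, the fractalkine receptor of patrolling monocytes and macrophages, measured 0.351, 0.327, 0.454, 0.241 and 0.361 CPM in vehicle rats and 0.51, 1.84, 0.739, 1.63 and 1.17 CPM at 1000 mkd. No treated rat fell into the vehicle range (log2 fold change 1.77, SE 0.42, adjusted p = 0.00312). Ccr1, a receptor of monocytes and neutrophils, went from a range of 0.331 to 0.581 CPM to one of 0.737 to 1.49 CPM, also without overlap (log2 fold change 1.32, SE 0.33, adjusted p = 0.00509). Cxcr3, the receptor of Cxcl9, Cxcl10 and Cxcl11 on T and NK cells, rose from a range of 0.643 to 1.2 CPM to one of 1.3 to 2 CPM (log2 fold change 0.73, SE 0.22, adjusted p = 0.0167). Ccr7, which guides T and dendritic cells to lymph nodes, had a log2 fold change of 0.92 (SE 0.34, adjusted p = 0.0414), with overlapping groups, and was called in only 7 of 15 alternatives. Cxcr3 lost its call without vehicle replicate 3 (adjusted p = 0.0511). Ccr7 lost it without vehicle replicate 1, 3, 4 or 5 or without replicate 3 or 5 of the treated rats, with log2 fold changes of 0.80 to 0.91 (adjusted p by edgeR at most 0.11 over its alternatives). Cxcr4, Cxcr5 and Cxcr6 were not called, with log2 fold changes of -0.15, 0.46 and 0.27. LOC134480114 overlaps Cx3cr1 and LOC120095183 overlaps Ccr7 in GRCr8, and their part in the counts of these receptors was not tested.

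**Figure D3:**
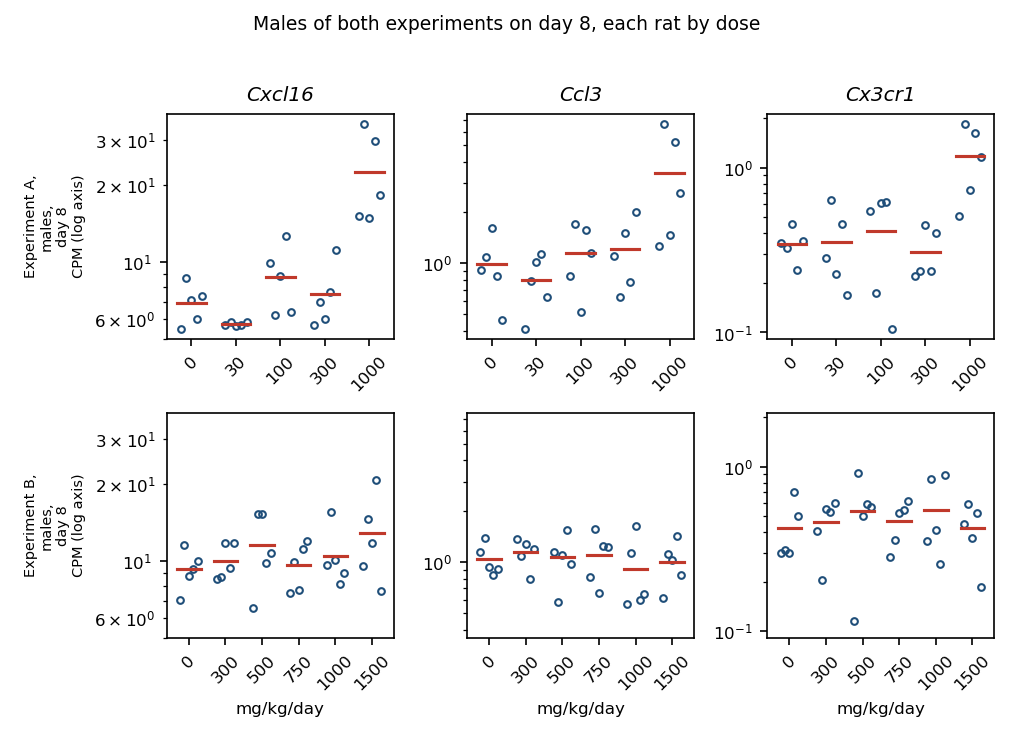
Level of Cxcl16, Ccl3 and Cx3cr1 in each male rat on day 8 (open circles, CPM on a log axis) by dose in mg/kg/day, in experiment A (top) and experiment B (bottom), with red bars at the group means. For Cxcl16 and Cx3cr1 all 5 rats at 1000 mkd in experiment A lie above the vehicle rats and for Ccl3 3 of 5 do, and the males of experiment B have no dose group without overlap with the vehicle rats.

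Across the 14 called members of experiment A, 8 had groups that did not overlap (Ccl27, Ccl5, Ccr1, Cx3cr1, Cxcl10, Cxcl16, Cxcr3 and Xcl1). These were 27.6% of the 29 members tested, whereas the groups did not overlap in 16.2% of all genes tested, and 21.4% of all genes were called. Of the 12 raised members, replicate 3 was the highest treated rat in 6, replicate 5 in 5 and replicate 6 in 1. The linear trend over all 5 dose groups, vehicle included, called 16 of 29 members (55.2%, beside 27.5% of all genes, 17.2% higher and 10.4% lower), 15 rising and 1 falling. It rests on the same 1000 mkd and vehicle rats as the comparison above. Beyond the members above, Ccl6 (log2 change from vehicle to 1000 mkd 0.90, SE 0.27, adjusted p = 0.00862), Ccl19 (0.64, SE 0.25, adjusted p = 0.0384) and Cxcl9 (0.83, SE 0.28, adjusted p = 0.016) rose in the trend, while Cxcl1 was not called by it (adjusted p = 0.0789). With dose on a log10 scale the trend called 11 members (16.7% of all genes), and Ccl2, Ccl6, Ccl19, Ccl27, Ccr7 and Cxcl9 were lost while Cxcl1 was gained. Ccl19, a ligand of CCR7, lost its trend call without replicate 2 or 3 of the treated rats or without vehicle replicate 1, 2, 3 or 4. Cxcl9 lost its call without replicate 3 of the treated rats. The members' median log2 fold change at 1000 mkd was 0.72 over the 29 that passed the filter, beside 0.00093 over all genes.

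In females on day 29 the receptor Cx3cr1 measured 0.272, 0.131, 0.461, 0.489 and 0.16 CPM in vehicle rats and 1.04, 1.62, 0.924, 0.27 and 0.426 CPM at 1500 mkd. Replicates 1, 2 and 3 lay above all vehicle rats (log2 fold change 1.54, SE 0.44, adjusted p = 0.0148). Cxcr4, the receptor of Cxcl12, measured 0.7, 0.655, 1.47, 2.2 and 1.44 CPM and 5, 7.87, 3.08, 1.89 and 1.23 CPM, with the same 3 treated rats on top (log2 fold change 1.58, SE 0.50, adjusted p = 0.027). Ccl24, an eosinophil attractant made by macrophages, fell from 6.8, 17.3, 19.1, 15.2 and 9 CPM to 9.57, 2.08, 6.5, 4.85 and 9.83 CPM. The groups of Ccl24 overlapped, and replicate 2 was the lowest (log2 fold change -1.05, SE 0.34, adjusted p = 0.0294). Replicate 2 was also the highest rat for Cxcl16, Cx3cr1 and Cxcr4, and without it 1 member was called (6.99% of all genes), whereas 9 were called without replicate 5 (17.2% of all genes). The calls of Cx3cr1, Cxcr4 and Ccl24 were each lost without replicate 2, with log2 fold changes of 1.18, 1.14 and -0.81. The call of Cxcr4 was also lost without vehicle replicate 1 or 2 or replicate 1 of the treated rats (adjusted p by edgeR at most 0.148 over its alternatives), and that of Ccl24 without vehicle replicate 2, 3 or 4 or replicate 3 or 4 of the treated rats (-1.04 to -0.89). Without vehicle replicate 1, vehicle replicate 2 or replicate 3 of the treated rats 3 members were called (10.7%, 14.2% and 10.1% of all genes). Cxcl16 was called in all 16 alternatives.

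Over all doses, 10 of 32 members were called by the linear trend in females on day 29 (31.2%, beside 16.5% of all genes, 12% higher and 4.43% lower). They included Ccl21, the lymphatic ligand of CCR7, whose vehicle rats measured 1.48, 4.52, 6.58, 1.59 and 2.88 CPM and whose 1500 mkd rats measured 5.32, 17.4, 5.75, 4.95 and 4.94 CPM (log2 change from vehicle to 1500 mkd 1.30, SE 0.35, adjusted p = 0.00549). Cxcl14, a chemokine made mainly by epithelial cells, was the member that fell in the trend, from 9.47 to 21.6 CPM in vehicle rats to 3.65 to 8.46 CPM at 1500 mkd (log2 change -1.52, SE 0.49, adjusted p = 0.0202). Its groups did not overlap at 1000 or 1500 mkd, although the comparison of 1500 mkd with vehicle was not called (log2 fold change -1.19, SE 0.56, adjusted p = 0.139). The share of all genes without overlap was 6.13% at 1500 mkd and was not counted at 1000 mkd. Ccl5 (1.03, SE 0.31, adjusted p = 0.0136), Ccl6 (0.82, SE 0.25, adjusted p = 0.0155) and Xcl1 (1.00, SE 0.36, adjusted p = 0.039) rose in the trend. Cxcl17 was also called, but it passed the filter through treated rats alone, so its call is a description and not a test. It had 3, 1, 3, 1 and 0 reads in vehicle rats and 1, 52, 16, 2 and 6 reads at 1500 mkd, with replicate 2 far above the others. Its mean at 1500 mkd was at least 3.35-fold higher than the floor of 3 reads per library, or at least 1.63-fold without that rat. Cxcl16, Cx3cr1 and Cxcr4 were called as well. Without replicate 2 of the 1500 mkd rats the trend called 5 members (11.4% of all genes), and Ccl21, Ccl6, Cx3cr1 and Cxcl17 were among those lost. Xcl1 was lost without vehicle replicate 1, 4 or 5 or replicate 1 or 4 of the 1500 mkd rats, with adjusted p by edgeR at most 0.164 over its alternatives. On log10 dose the trend called 2 members, Cxcl16 and Cx3cl1 (7.72% of all genes).

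In males on day 29 the linear trend called 4 of 28 members (14.3%, beside 14% of all genes). Ccl21 rose (log2 change from vehicle to 1500 mkd 1.19, SE 0.35, adjusted p = 0.0157), with vehicle rats at 4.28, 3.68, 4.16, 3.63 and 2.08 CPM and 1500 mkd rats at 7.91, 5.21, 14.3, 3.74 and 3.2 CPM. Replicates 1, 2 and 3 lay above the vehicle range, and the call was lost without replicate 3 (adjusted p = 0.0751). Replicate 3 is the rat that the paper named an outlier in Ki67 labeling. Cxcl16 (0.87, SE 0.24, adjusted p = 0.0122) and Ccl19 (0.78, SE 0.25, adjusted p = 0.0248) rose too, and Cxcr5, the receptor of B cells and follicular helper T cells, fell (-0.78, SE 0.28, adjusted p = 0.0408). Bcl9l overlaps Cxcr5 in GRCr8 and measured 50.4 CPM in vehicle rats and 41.1 CPM at 1500 mkd (log2 fold change -0.29, SE 0.18, adjusted p = 0.299, edgeR). Its part in the counts of Cxcr5 was not tested. Ccl19 was not called without vehicle replicate 1 or 4 or replicate 1 of the 1500 mkd rats, and Cxcr5 without vehicle replicate 1 or 4 or replicate 2, 4 or 5 of the 1500 mkd rats. On log10 dose Ccl21 alone was called in males on day 29 (7.52% of all genes). In males on day 8 the trend called 0 of 29 members (2.02% of all genes, 5 members at an unadjusted p under 0.05 by edgeR, and 0 members by DESeq2). In females on day 8 it called 2 of 31 members (6.45%, beside 4.1% of all genes), Cxcl10 (1.85, SE 0.48, adjusted p = 0.0223) and Ccl12, whose call is again no test. Without replicate 1 or 5 of the 1500 mkd rats the trend called 4 members (7.18% and 6.81% of all genes), Ccl4 and either Cxcl1 or Ccl3 in addition. Cxcl10 lost this call without vehicle replicate 1 or replicate 3 or 4 of the 1500 mkd rats, and on log10 dose. Ccl12 reads at the lower doses of these females reached 74 in replicate 3 at 750 mkd and 21 in replicate 1 at 1000 mkd.

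**Figure D4:**
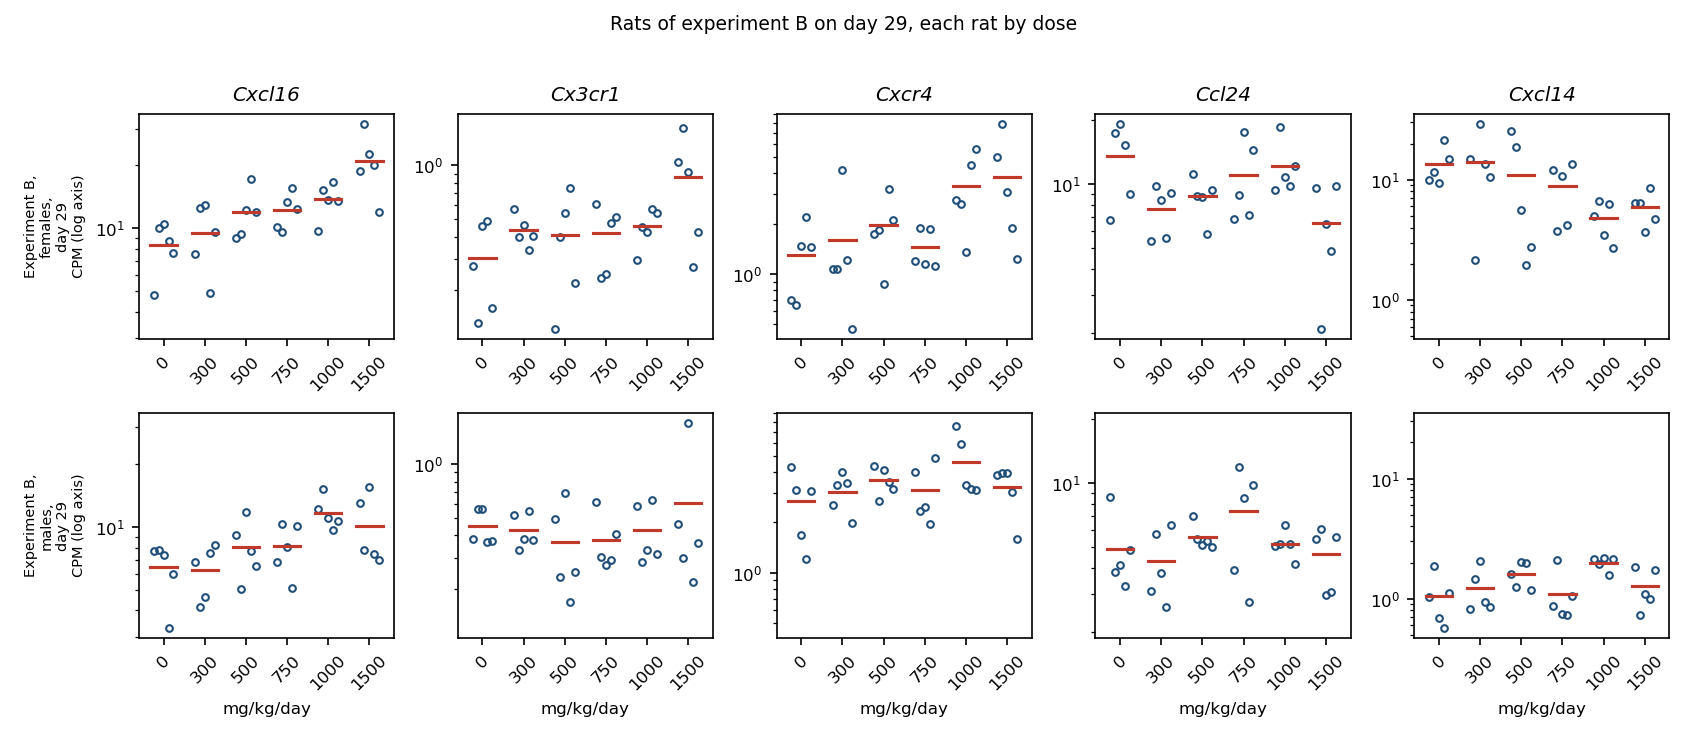
Level of Cxcl16, Cx3cr1, Cxcr4, Ccl24 and Cxcl14 in each rat of experiment B on day 29 (open circles, CPM on a log axis) by dose in mg/kg/day, in females (top) and males (bottom), with red bars at the group means. In females Cxcl16 climbs from a mean of 8.33 CPM in vehicle rats to 21 CPM at 1500 mkd and Cxcl14 drops from 13.5 to 5.92 CPM, and the group means of Cxcl14 in males stay between 1.06 and 2 CPM.

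Whether the response differed between the experiments was tested at 1000 mkd in males on day 8, and 5 of 30 members were called (16.7%, beside 6.9% of all genes). The log2 fold change of Cxcl10 was 4.19 in experiment A and 0.21 in experiment B (difference 3.99, SE 0.69, adjusted p = 0.0014), where the 1000 mkd rats ran from 3.67 to 8.54 CPM and the vehicle rats from 3.64 to 6.67 CPM. The differences were 1.53 for Cxcl16 (SE 0.34, adjusted p = 0.00778), 2.04 for Ccl3 (SE 0.53, adjusted p = 0.0171) and -1.42 for Ccl27 (SE 0.38, adjusted p = 0.0196). For each of these 4 members the log2 fold change in experiment B lay between -0.24 and 0.30. Without replicate 3 of the 1000 mkd rats of experiment A, 2 members were called, Cxcl10 and Cxcl16 (1.74% of all genes). Without replicate 2 of the 1000 mkd rats of experiment B 10 members were called (11.2% of all genes), and without replicate 2 or replicate 4 of the 1000 mkd rats of experiment A 8 were called (11.6% and 12.7% of all genes). The experiment, the supplier and the stock cannot be told apart.

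The response at 1500 mkd was not shown to differ between the sexes in any member. On day 8 edgeR called 0 of 31 members (0% of all genes, 4 members at an unadjusted p under 0.05) and on day 29 it called 0 of 32 (0.0688% of all genes, 5 members at an unadjusted p under 0.05). Between 7 and 28 days it called 0 of 29 members in males (0% of all genes, 2 members at an unadjusted p under 0.05) and 0 of 33 in females (0.00858% of all genes, 3 members at an unadjusted p under 0.05). DESeq2 called 0 members in all 4 comparisons. Without replicate 3 of the 1500 mkd males, the Ki67 outlier of the paper, Cx3cr1 was called for the sexes on day 29. Cxcl16 had log2 fold changes of 1.34 in females and 0.63 in males on day 29 (difference 0.71, SE 0.37, adjusted p = 0.323).

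Vehicle rats of the sexes differed in a few members. On day 8, 2 of 31 members were called (6.45%, beside 8.37% of all genes), and on day 29, 3 of 32 (9.38%, beside 11.6% of all genes). Cxcl14 measured 1.04, 2.03, 0.701, 1.35 and 0.417 CPM in males and 4.29, 4.24, 9.18, 3.61 and 1.44 CPM in females on day 8, where only 1 female fell into the male range (female minus male log2 difference 1.85, SE 0.34, adjusted p = 7.35e-05). On day 29 the males measured 1.04, 1.88, 0.693, 0.572 and 1.11 CPM and the females 10, 11.6, 9.47, 21.6 and 15 CPM, far apart (log2 difference 3.56, SE 0.52, adjusted p = 7.43e-07). Ccl24 was higher in females on day 29, with 6.8 to 19.1 CPM beside 3.26 to 8.56 CPM in males (log2 difference 1.34, SE 0.34, adjusted p = 0.00346). Cxcl1 was higher in females on day 29 (log2 difference 1.77, SE 0.61, adjusted p = 0.0356), with overlapping values of 1.59 to 21.7 CPM in females and 0.891 to 6.33 CPM in males, and it was called in 8 of 15 alternatives. Cxcr4 was lower in females on day 8, with 0.582 to 3.08 CPM beside 1.74 to 5.47 CPM in males (log2 difference -1.45, SE 0.43, adjusted p = 0.017), and was not called on day 29 (-1.17, SE 0.44, adjusted p = 0.0569). The call of Cxcr4 was lost without male replicate 1 or female replicate 2 or 5, and that of Cxcl1 without male replicate 2, 3, 4 or 5 or female replicate 1 or 4. Between day 8 and day 29, 0 of 29 members were called in vehicle males (0.00872% of all genes, 6 members at an unadjusted p under 0.05, 0 by DESeq2). In vehicle females edgeR called 0 of 33 (0.952% of all genes, 2 members at an unadjusted p under 0.05), and DESeq2 called 2, Ccl27 and Cxcl14, which edgeR also called without replicate 1 of the day 8 or replicate 2 of the day 29 females. For the 5 vehicle males of day 29, 1 label field names experiment 1, against their titles, which set the grouping.

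**Figure D5:**
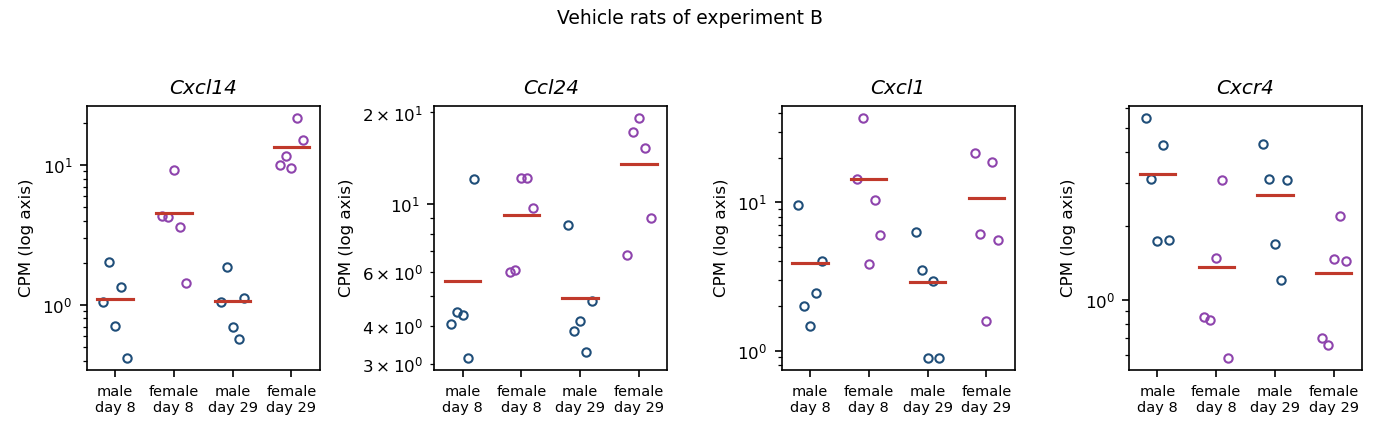
Level of Cxcl14, Ccl24, Cxcl1 and Cxcr4 in each vehicle rat of experiment B (open circles, CPM on a log axis) by sex and day, with red bars at the group means. Cxcl14 lies between 9.47 and 21.6 CPM in females on day 29, above all males of that day, which lie between 0.572 and 1.88 CPM.

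Genes of the same pathways were counted from lists. Over all genes, 14% were called higher and 7.45% lower in experiment A at 1000 mkd. At 1500 mkd in females on day 29, 9.55% were higher and 3.54% lower. In either direction, 0.705% were called in females on day 8, and 0.177% and 4.91% in males on day 8 and day 29. In experiment A at 1000 mkd, 21 of 24 interferon response genes tested rose and 0 fell (median log2 fold change 3.26), among them Rsad2, an antiviral enzyme (6.82, SE 0.94, adjusted p = 9.33e-05), and the GTPase Gbp5 (3.37, SE 0.54, adjusted p = 0.000217). Their summed level was 1153, 9335, 1664, 9743 and 3030 CPM in replicates 2 to 6 and 539 to 1360 CPM in vehicle rats, so replicates 3 and 5 were the highest here as they were for Cxcl10, Cxcl16 and Ccl3. Of 25 genes of chemokine receptor signalling, 14 rose and 0 fell, including the tyrosine kinase Ptk2b (1.53, SE 0.21, adjusted p = 9.53e-05), the phospholipase Plcb2 (1.16, SE 0.16, adjusted p = 0.000109) and the exchange factor Vav1 (1.63, SE 0.25, adjusted p = 0.000153). Of 10 inflammatory and NF-kB genes, 7 rose, including Nfkb2 (0.89, SE 0.14, adjusted p = 0.000179). At 1500 mkd in females on day 29, 12 of 24 interferon genes rose, such as Gbp4 (4.07, SE 0.64, adjusted p = 0.000156), and 10 of 25 signalling genes rose and 1 fell, with Ptk2b at 1.60 (SE 0.32, adjusted p = 0.00122). The interferon sum of these females was 1381, 2055, 3310, 1329 and 981 CPM, beside 913.9 to 1452 CPM in vehicle rats. Replicate 4, the highest treated rat for Cxcl10 (28.6 CPM), lay within the vehicle range of this sum. Replicate 3 was highest in the sum and had 13.9 CPM of Cxcl10. On day 8 in females, 4 of 24 interferon genes rose, including Isg15 (3.86, SE 0.81, adjusted p = 0.0354), and the summed level was 1330, 2438, 2374, 6555 and 988 CPM at 1500 mkd beside 969 to 1447 CPM in vehicle rats. Replicates 2, 3 and 4, which were highest for Ccl12 and Cxcl10, were also highest in this sum. In males of experiment B, 0 of these genes were called on day 8, and on day 29 1 interferon gene rose and 1 fell.

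Markers of leukocytes were counted in the same way, against 14% of all genes higher and 7.45% lower in experiment A and 9.55% higher and 3.54% lower in females on day 29. In experiment A at 1000 mkd, 11 of 11 T and NK cell markers tested rose, such as Cd3e (2.19, SE 0.50, adjusted p = 0.00244) and Cd8a (1.37, SE 0.24, adjusted p = 0.000393). The list held 13 markers, of which 11 passed the filter in experiment A and 7 to 10 in the other data sets. Whether some passed through treated rats alone was not checked. The summed level of the list was 54.3, 54.8, 46.3, 72.6 and 84.8 CPM in replicates 2 to 6 and 27.1 to 32.6 CPM in vehicle rats. Of the macrophage and Kupffer cell markers 8 of 13 rose, including Cd68 (1.61, SE 0.24, adjusted p = 0.000141). Their sum was 1838, 1627, 1786, 2368 and 2875 CPM in replicates 2 to 6 and 674.6 to 1946 CPM in vehicle rats. Replicate 3, the highest treated rat for Ccl2, Ccl3, Ccl4 and Cxcl16, was the lowest treated rat in this macrophage sum. Replicate 6 was the highest in the macrophage sum and in the T and NK cell sum. Of the monocyte markers 3 of 8 rose, with a sum of 17.6, 76.8, 29.4, 79.3 and 39.9 CPM in replicates 2 to 6 and 9.68 to 24.4 CPM in vehicle rats. Neutrophil markers split, with Ncf1 up (1.23, SE 0.27, adjusted p = 0.00177) and S100a8 (-1.82, SE 0.54, adjusted p = 0.0135) and S100a9 down, and Cd177 listed at 0 in every rat of both groups. B cell markers were called in 0 of 4 by edgeR. In females on day 29, 4 of 10 T and NK cell markers, 5 of 13 macrophage and Kupffer cell markers and 3 of 8 monocyte markers rose. Of the other lists in these females, 2 of 4 neutrophil, 2 of 7 endothelial, 2 of 8 stellate cell and 1 of 4 cholangiocyte markers rose, 2 of 3 erythroid markers fell, 1 of 10 hepatocyte markers rose and 2 fell, and edgeR called 0 of 5 dendritic cell and 0 of 3 B cell markers. The monocyte sum of these females was 44.8, 85.2, 65.4, 27.8 and 19.3 CPM at 1500 mkd and 15.6 to 25.4 CPM in vehicle rats, and replicate 2, the highest rat for Cx3cr1, Cxcr4 and Cxcl16, was highest in it. Klrb1b, an NK cell receptor, was listed at 0 in all 10 of these rats. In females on day 8 at 1500 mkd, where Ccl12 and Cxcl10 were highest in replicates 2, 3 and 4, edgeR called 0 of 43 leukocyte markers tested (5 at an unadjusted p under 0.05). In males of experiment B it called 0 of 42 on day 8 and 0 of 39 on day 29 at 1500 mkd (4 at an unadjusted p under 0.05 on each day). Hepatocyte markers fell in 3 of 10 in experiment A, including Alb (-0.91, SE 0.27, adjusted p = 0.0132). Of the other lists in experiment A, 4 of 7 endothelial and 1 of 8 stellate cell markers rose, 2 of 3 erythroid markers fell, and edgeR called 0 of 4 dendritic cell and 0 of 4 cholangiocyte markers. In the list of atypical receptors and platelet chemokines outside the rule, 2 of 7 genes tested rose and 0 fell in experiment A. The median log2 fold change of these 7 was -0.08, and 3 of them lay above 0. Ccrl2, an atypical receptor that presents chemerin, rose with the chemerin receptor Cmklr1, by 2.55 (SE 0.47, adjusted p = 0.000525) and 1.85 (SE 0.35, adjusted p = 0.000676) on the log2 scale. The part of these markers and of the interferon genes in the values of the chemokine genes was not tested.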

How the data were processed

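Gene expression was measured by RNA-Seq (TruSeq Stranded mRNA libraries) in the left liver lobe of 145 rats. According to the methods and the labels, the authors trimmed reads with Trimmomatic, aligned them with Bowtie2 to Rn6 and counted them per gene with HTSeq, and they deposited raw read counts in 5 tables of 17337 genes. The strand setting of the counting and tool versions are not given in the sources used here. HTSeq summary lines, present in 4 tables (35.5 to 67.1% of a column's total), were left out of library sizes. No 2 columns were identical.

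Counts were analysed per table with edgeR 4.0.16 (limma 3.58.1, R 4.3.3) by TMM scaling, filterByExpr and the quasi-likelihood F-test, with all dose groups in 1 fit. SEs were computed as the log2 fold change divided by the square root of F. Response differences and vehicle comparisons were fitted jointly over 2 tables, where sex, duration or experiment goes with the table, and differences between tables in the processing cannot be told apart from them. DESeq2 1.42.0 was an alternative. The scripts were tested on simulated data. Rats shared cages in pairs, and which rats were cage mates is not given in the sources used here, so p-values measure only the spread between these rats.

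The members and lists were chosen with earlier results of these data known. Named members were those called in any comparison, the 3 with the lowest p at the highest dose of each data set and the 5 with the highest mean CPM in vehicle rats. Ccl7, Ccl20, Cxcr1, Cxcr2 and Cxcr6 were added after their values were seen. Results of 1 member are not reported here, although the counts of called members include it. Other genes were named from lists when among the 4 lowest adjusted p of their list in any data set or when listed at 0. Leaving out single rats in the joint comparisons was chosen after seeing the data.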

Additional observations from a re-analysis of the deposited data

Results flagged for a closer look

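The values of members called or lowest in p at the highest dose were examined in the vehicle and highest-dose groups, which gave 56 sets of 5 rats. In 4 of 56 sets, the highest rat stood apart from the other 4 beyond the 95% limit for 5 samples (gap over range above 0.71). Chance flags about 1 in 20 sets if values are normal and independent, but the same rats recur across members. These were Cxcl1 in vehicle replicate 4 of experiment A (58 CPM), Cxcl1 in replicate 4 of the 1000 mkd rats (6.42 CPM), Ccl2 in replicate 3 of the 1000 mkd rats (5.66 CPM) and Cxcl10 in vehicle replicate 2 (4.43 CPM).

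The response to 1000 mkd differed between the experiments by a test of the difference itself (edgeR, log2 scale, experiment A minus experiment B) in the following members. The difference was 3.99 for Cxcl10, 2.04 for Ccl3, 1.53 for Cxcl16 and -1.42 for Ccl27. Experiment, supplier and stock cannot be told apart.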

How the results depend on the processing

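No named value at a highest dose reversed under any alternative run, and in the refits 54 values lost their call, 2 gained one and 380 kept their side of the threshold. Requiring at least 10 counts in every rat, which leaves fewer genes, gave 7 members at 1000 mkd and 9 in the trend of experiment A, and 0 at 1500 mkd and 1 in the trend of females on day 8. Fitting only vehicle and the highest dose gave 0 members in females on day 8 and 2 in females on day 29. A trend on log10 dose gave 11 members in experiment A, 2 in females on day 8, and 1 in males and 2 in females on day 29. DESeq2 gave 2 members for vehicle females of the durations. The cause was not tested.

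Leaving out 1 rat at a time gave 10 to 17 members at 1000 mkd and 13 to 19 in the trend of experiment A. In males it gave 0 to 0 and 0 to 0 on day 8 and 0 to 1 and 2 to 5 on day 29, and in females 0 to 3 and 1 to 4 on day 8 and 1 to 9 and 5 to 11 on day 29. The trend in males on day 29 fell to 2 members without vehicle replicate 1 or 4 (14.1% and 11.1% of all genes called), and 3 members were called at 1500 mkd in females on day 8 without replicate 1 of the treated rats (3.69% of all genes called). It gave 2 to 10 members for the response difference between experiments, 0 to 0 between sexes on day 8, 0 to 1 on day 29, and 0 to 0 between durations in either sex. For vehicle rats it gave 1 to 3 and 2 to 3 between sexes on day 8 and day 29, and 0 to 0 in males and 0 to 2 in females between durations.

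Same-numbered rats had a median correlation of -0.023 to 0.0271 by data set (lowest -0.539), beside -0.0102 to 0.00394 for rats of different numbers. Correlations above 0.1 stood in 13 of 42 same-numbered pairs in experiment A and in 20 to 24 of 75 in the other data sets. The medians showed no pairing by number, and they cannot exclude a link between single rats. With the number as a replicate block, 12 members were called at 1000 mkd and 15 in the trend of experiment A, 0 and 0 in males on day 8, 0 and 5 in males on day 29, 0 and 2 in females on day 8, 6 and 9 in females on day 29, and 4 between experiments. The block gave 0 members for the other response differences.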
